A study of Mus musculus with 2 samples.

Results

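The subject is a set of 9 genes through which astrocytes, the support cells of the brain that wrap synapses and blood vessels, take up transmitters, make and export glutamine, couple to each other and move potassium and water. The genes were found by symbol among the 32285 genes of both count matrices, and each symbol matched 1 row. They are Slc1a2 and Slc1a3 (glutamate uptake), Glul and Slc38a3 (glutamine synthesis and export), Slc6a11 (GABA uptake), Gja1 and Gjb6 (connexins), Kcnj10 (a potassium channel) and Aqp4 (a water channel). The study took hippocampi from mice 4 weeks old in 2 groups: mice with the L389P change in Crlf3, which encodes cytokine receptor-like factor 3, and wild-type mice. By the labels the mice were untreated, and neither sex nor strain is given. In each genotype, 4 hippocampi of 2 mice were pooled into 1 library, and the labels assign no cell to an animal. Dissociated tissue was cleared of debris and myelin, live cells were sorted by dye exclusion, and transcripts were counted from their 5′ ends as unique molecular identifiers (UMIs) in droplets.

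At excitatory synapses, astrocytes clear glutamate with high-affinity transporters, convert it to glutamine with glutamine synthetase, and return the glutamine to neurons through system N carriers. Gap junctions built of connexins join astrocytes into a network that shares ions and small metabolites. Inward rectifier potassium channels and water channels sit densely on the endfeet that line blood vessels, where extracellular potassium and water are handled.

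The mutant library held 5276 cells after filtering, with a median of 7385 UMIs per cell, and the wild-type library 7098 cells with a median of 6193 UMIs. Cells were put in a class one by one from marker genes, none of which is among the 9 genes. The astrocyte-like class held 467 mutant and 743 wild-type cells, with a median of 7503 and 5907 UMIs. Its 10 leading genes by fold included 5 of its own markers (Gpr37l1, Ntsr2, Aldoc, Slc4a4 and Cldn10) and no marker of another class. Because markers defined the classes, their place among the leading genes of any class is no separate evidence of its identity. Microglia-like cells were the most numerous, with 3247 mutant and 4432 wild-type cells. The other large classes were endothelial-like (792 mutant, 798 wild-type), mural-like (160 and 126), choroid plexus-like (146 and 424), neural progenitor-like (69 and 59) and neuroblast-like cells (130 and 100). Radial glia-like, ependymal-like, fibroblast-like and border macrophage-like cells numbered 11 to 26 in the mutant library and 20 to 74 in the wild-type library. No class of mature neurons or oligodendrocytes had more than 4 cells in a library. The libraries shared 54 cell barcodes among kept cells. Levels are CPM, which here means UMIs of the gene in every 1000000 UMIs summed over the class, with exact Poisson 95% intervals that cover counting error only. Where a count was 0, the level of 3 UMIs is given as the most it allows. With 1 library per genotype no difference between genotypes or classes was tested.

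**Figure D1:**
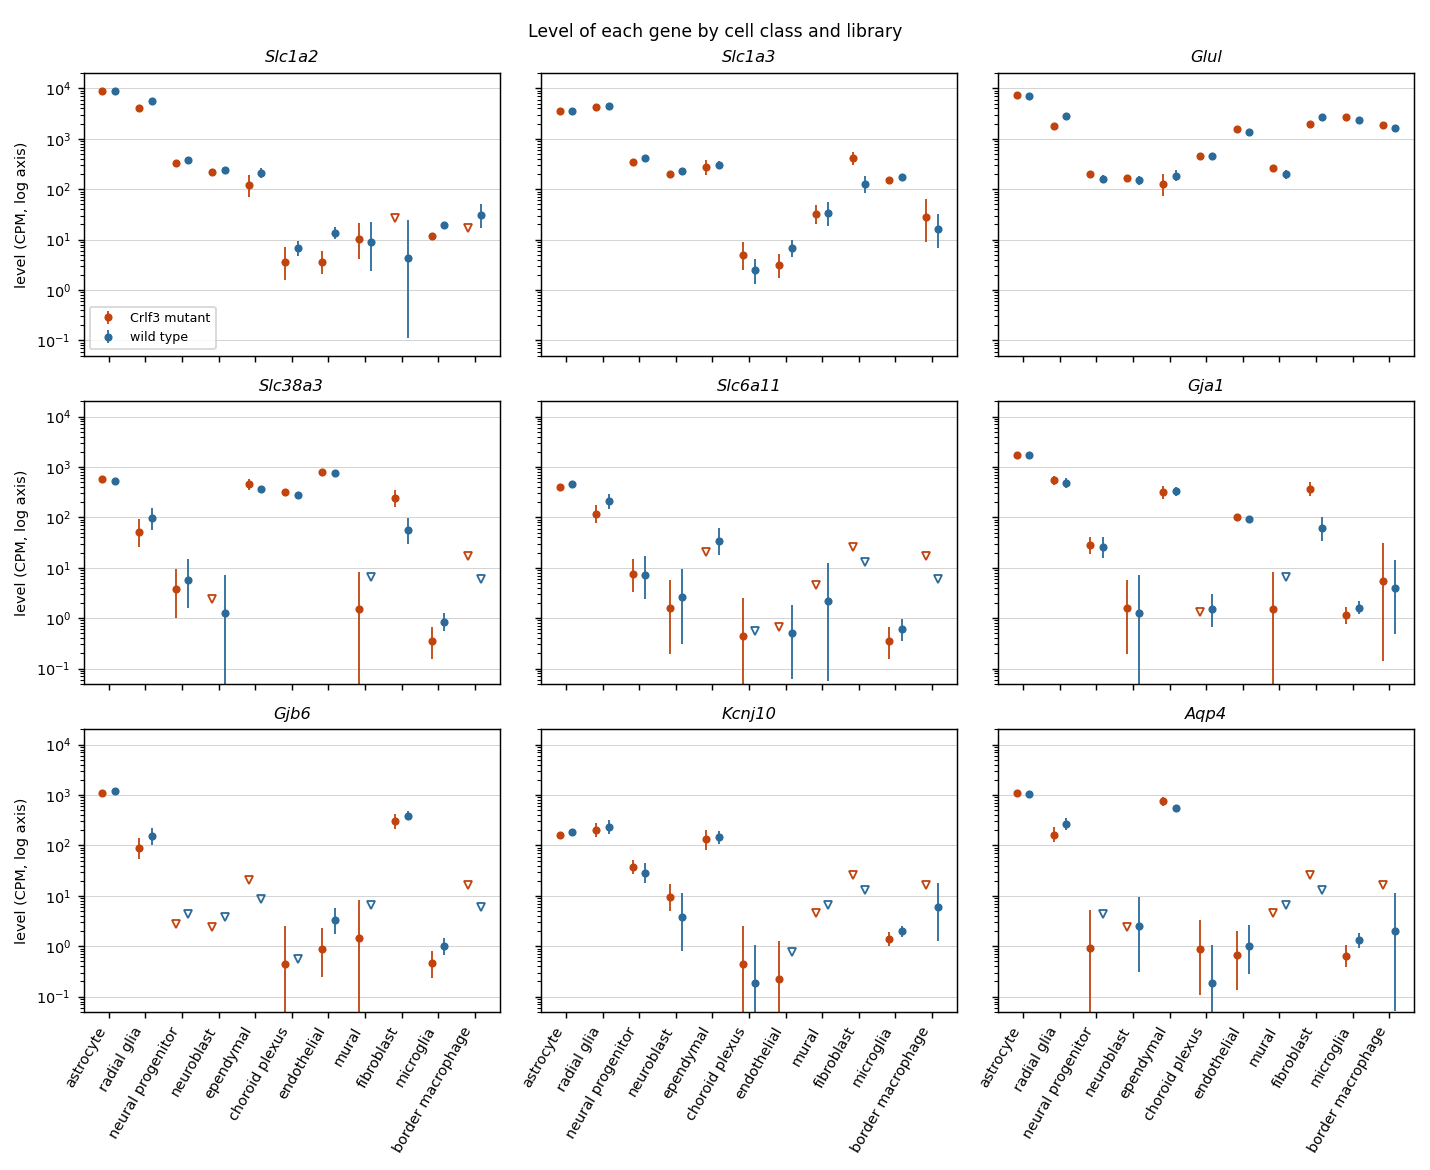
Level of each of the 9 genes (CPM, log axis) in 11 cell classes, Crlf3 mutant left of wild type. Points are summed UMIs of a class and library with Poisson 95% bars, and open triangles mark a count of 0 at the level of 3 UMIs; all 9 genes were high in astrocyte-like cells, Glul was above 100 CPM in all 11 classes, and Gjb6 had no UMI in progenitor-like and neuroblast-like cells.

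Astrocyte-like cells expressed the whole set. The 9 genes together made up 2.48% of all mutant and 2.47% of all wild-type astrocyte-like UMIs. A median of 8 of the 9 genes was detected per cell in both libraries, and all 9 were found in 45.2% of mutant and 45.6% of wild-type cells. After thinning every cell to 2000 UMIs the median was 7 genes in astrocyte-like cells of both libraries, against 5 and 4 in mutant and wild-type radial glia-like cells. It was 4 and 3 in mutant and wild-type ependymal-like cells, 2 in endothelial-like cells, 1 in microglia-like cells and 0 in mural-like cells of both libraries. Of all UMIs of the 9 genes in classed cells, astrocyte-like cells held 48.6% in the mutant and 53.8% in the wild-type library. That share depends on how many cells of each class survived dissociation and sorting. Gene by gene it ran from 25.1% (mutant) and 28.3% (wild type) for Glul to 98.2% and 97.1% for Gjb6.

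**Figure D2:**
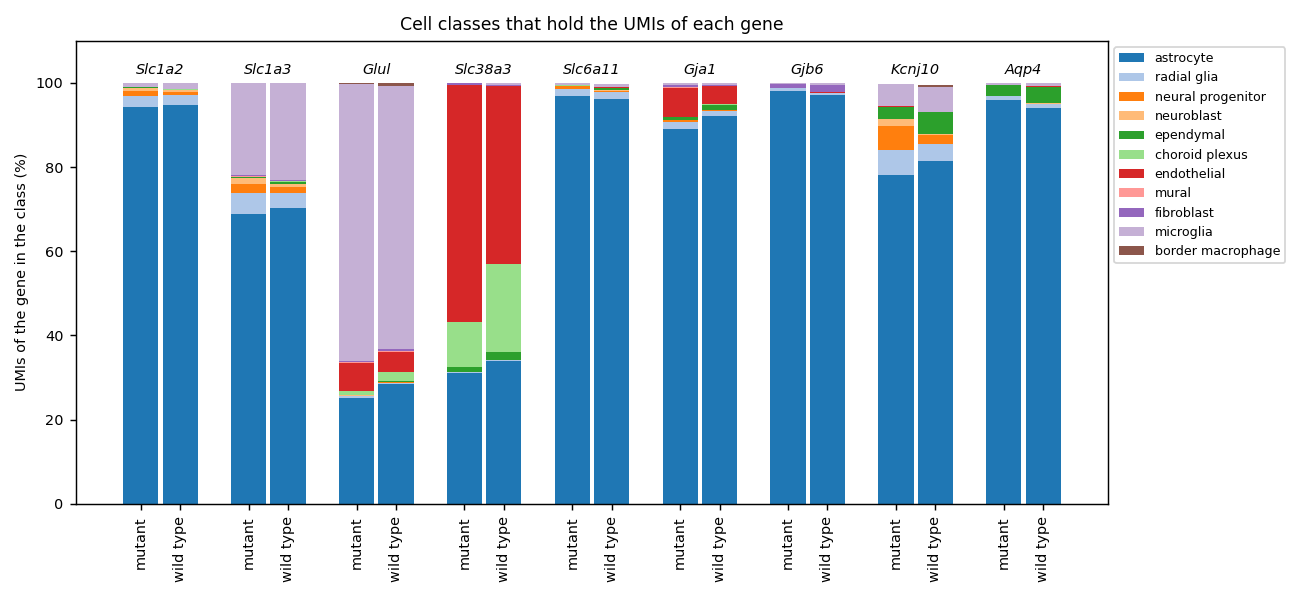
Share of the UMIs of each gene held by each of 11 cell classes (%), mutant left of wild type. Astrocyte-like cells held 94.2% (mutant) and 94.8% (wild type) of Slc1a2 UMIs, while microglia-like cells held 65.8% and 62.5% of Glul UMIs and endothelial-like cells 56.2% and 42.5% of Slc38a3 UMIs.

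Both glutamate transporters were high in astrocyte-like cells but differed in where else they were found. Slc1a2 encodes GLT-1, the main glutamate transporter of the mature forebrain. Its level was 8695 CPM (95% interval 8598 to 8794) in mutant and 8995 CPM (8907 to 9083) in wild-type astrocyte-like cells, and every one of the 467 and 743 cells had a UMI. Slc1a3 encodes GLAST, the transporter that radial glia and Bergmann glia also use. Its level was 3532 CPM in mutant and 3491 CPM in wild-type astrocyte-like cells. In radial glia-like cells Slc1a2 reached 4126 CPM in the mutant and 5501 CPM in the wild-type library, 47.4% and 61.2% of the astrocyte-like level. Slc1a3 was above its astrocyte-like level there, with 4182 CPM in the mutant and 4426 CPM in the wild-type library, 118% and 127% of that level. These radial glia-like values rest on 21 mutant and 20 wild-type cells, and the border with astrocyte-like cells is not sharp. Of these cells, 10 mutant and 12 wild-type ones had only the 3 of 6 markers that the gate needs. Clustering put 29 astrocyte-like cells in the radial glia cluster, beside 36 radial glia-like cells. Of the UMIs of both transporters, Slc1a2 made up 71.1% (mutant) and 72.0% (wild type) in astrocyte-like cells, against 49.7% and 55.4% in radial glia-like cells.

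Neural progenitor-like cells, led by cell-cycle genes such as Top2a and Mki67, still carried both transporters at a small part of the astrocyte-like level. Slc1a2 was at 337 CPM in mutant and 373 CPM in wild-type progenitor-like cells, 3.87% and 4.15% of the astrocyte-like level. Slc1a3 was at 340 CPM in mutant and 423 CPM in wild-type progenitor-like cells, 9.62% and 12.1% of that level. Neuroblast-like cells, led by Tubb3, Neurod1 and Dcx, had 217 CPM (mutant) and 236 CPM (wild type) of Slc1a2. Their Slc1a3 level was 204 CPM in the mutant and 228 CPM in the wild-type library. Slc1a2 thus made up 49.8% and 46.9% of the UMIs of both transporters in mutant and wild-type progenitor-like cells, and 51.5% and 50.8% in neuroblast-like cells. The 95% intervals of these shares all lie below those of astrocyte-like cells. In cells thinned to 2000 UMIs, a Slc1a3 UMI was found in 42.0% of mutant and 50.8% of wild-type progenitor-like cells, against 0.648% and 1.81% of endothelial-like cells.

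Microglia-like cells had Slc1a3 without a matching amount of Slc1a2. Slc1a3 was at 150 CPM (145 to 155) in mutant and 171 CPM (167 to 176) in wild-type microglia-like cells. A UMI was found in 63.1% of mutant and 63.8% of wild-type cells, at medians of 7739 and 6337.5 UMIs per cell. Slc1a2 was at 11.9 CPM in mutant and 19.1 CPM in wild-type microglia-like cells, 0.137% and 0.213% of its astrocyte-like level, against 4.25% and 4.91% for Slc1a3. Slc1a2 made up 7.36% (mutant) and 10.0% (wild type) of the UMIs of both transporters in microglia-like cells, far below its share in astrocyte-like cells. In endothelial-like cells, at medians of 5246.5 and 4527 UMIs, a Slc1a3 UMI was found in 1.77% of mutant and 2.88% of wild-type cells. RNA free in the droplets was not measured separately.

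Mural-like cells, which wrap vessels as pericytes or smooth muscle, had little of either transporter. Slc1a3 was at 32.8 CPM (20.6 to 49.7) in mutant and 33.3 CPM (18.6 to 54.9) in wild-type mural-like cells, from 22 and 15 UMIs. A UMI was present in 11.9% of mutant and 11.1% of wild-type mural-like cells, at medians of 3708 and 3031.5 UMIs, above the endothelial-like shares given before. Slc1a2 had 7 UMIs in mutant and 4 in wild-type mural-like cells, and 57.1% of the mutant UMIs came from 1 cell. Mural-like cells were divided with subtype markers chosen after the class values were seen. Cells with pericyte markers (131 mutant, 105 wild-type) had 47.3 CPM (29.3 to 72.3) and 49.3 CPM (27.6 to 81.3) of Slc1a3. Cells with smooth muscle markers (28 mutant, 20 wild-type) had 1 UMI in the mutant library (4.49 CPM) and 0 UMIs in the wild-type library. In both libraries the Poisson interval of smooth muscle ended just below the start of the pericyte interval. The summed level of 10 microglial markers was 163 CPM in mutant and 175 CPM in wild-type mural-like cells, against 24916 CPM and 24733 CPM in microglia-like cells.

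The promoter window of Slc1a3 is shown because, of both transporters, it kept the larger part of its astrocyte-like level in microglia-like and progenitor-like cells. Windows are the 300 bases around the gene start in RefSeq (GRCm38.p6). Slc1a3 lies on the minus strand of chromosome 15, and its window is chr15:8710758-8711057. Capitals mark matches on either strand to 3 motifs, the box named after its letters CCAAT, the core promoter box with the letters TATAAA and the SP1-type box with the letters GGGCGG.
Slc1a3: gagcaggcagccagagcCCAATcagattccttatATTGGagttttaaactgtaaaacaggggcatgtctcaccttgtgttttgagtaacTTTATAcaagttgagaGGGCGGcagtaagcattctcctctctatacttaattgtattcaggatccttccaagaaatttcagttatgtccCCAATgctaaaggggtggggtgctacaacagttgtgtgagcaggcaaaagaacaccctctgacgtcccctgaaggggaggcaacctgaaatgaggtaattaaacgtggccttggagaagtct
The window holds 3 CCAAT matches, 1 GGGCGG match and 1 TATAAA match. Of all 32851 RefSeq windows, 37.4% hold CCAAT, 35.7% GGGCGG and 13.6% TATAAA. For Slc1a2 the RefSeq start used for the window (chr2:102706188-102706487) lies inside the gene as GENCODE annotates it on GRCm38 (chromosome 2, 102658659 to 102790784, plus strand). None of the 7 motifs searched was found in it.

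Glul, the enzyme that joins glutamate and ammonia to glutamine, was the only one of the 9 genes above 100 CPM in all 11 classes of both libraries. It was at 7557 CPM (7466 to 7649) in mutant and 7077 CPM (6999 to 7156) in wild-type astrocyte-like cells. Microglia-like cells had 2649 CPM in the mutant and 2343 CPM in the wild-type library, 35.1% and 33.1% of the astrocyte-like level. Microglia-like cells, the most numerous class, held 65.8% of all mutant and 62.5% of all wild-type Glul UMIs. A Glul UMI was found in 99.7% of mutant and 99.6% of wild-type microglia-like cells. Border macrophage-like cells had 1861 CPM (mutant) and 1622 CPM (wild type) of Glul. Endothelial-like cells had 1555 CPM in the mutant and 1383 CPM in the wild-type library.

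Glul was lowest in neuron-lineage, mural-like and ependymal-like cells. Progenitor-like cells had 203 CPM (mutant) and 163 CPM (wild type), and neuroblast-like cells 164 CPM and 150 CPM. Mural-like cells had 264 CPM (227 to 306) in the mutant and 197 CPM (159 to 243) in the wild-type library. Ependymal-like cells, the ciliated lining of the ventricles, had 126 CPM in the mutant and 186 CPM in the wild-type library. Ordered by level, with intervals spanning both libraries, those of mural-like, progenitor-like, neuroblast-like and ependymal-like cells overlapped from each to the next. The intervals of microglia-like, fibroblast-like, radial glia-like, border macrophage-like and endothelial-like cells did so too.

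Slc38a3 (chromosome 9, 107650634 to 107669530, minus strand, GRCm38) encodes SNAT3, a system N transporter that moves glutamine in and out of cells together with sodium and in exchange for protons. It was higher in endothelial-like than in astrocyte-like cells in both libraries. Endothelial-like cells had 811 CPM (784 to 837) in the mutant and 755 CPM (728 to 783) in the wild-type library. Astrocyte-like cells had 575 CPM (550 to 601) and 530 CPM (509 to 552), so the endothelial-like level was 141% of the astrocyte-like level in the mutant and 143% in the wild-type library. Ependymal-like cells had 461 CPM in the mutant and 359 CPM in the wild-type library, and choroid plexus-like cells, the epithelium that makes cerebrospinal fluid, had 315 CPM and 274 CPM. Microglia-like cells had 9 UMIs in the mutant and 25 in the wild-type library, 0.346 CPM and 0.843 CPM. Mural-like cells had 1 UMI in the mutant library and 0 in the wild-type library. A Slc38a3 UMI was found in 92.8% of mutant and 89.8% of wild-type endothelial-like cells, against 0.246% and 0.542% of microglia-like cells at greater depth.

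Glul and Slc38a3 differed in opposite directions between arterial and capillary cells. Endothelial-like cells were divided by arterial and capillary markers, chosen after the class values were seen. Cells with arterial markers, 18 mutant and 19 wild-type, had 3634 CPM (3318 to 3973) and 2950 CPM (2668 to 3253) of Glul. Cells with capillary markers, 752 mutant and 755 wild-type, had 1458 CPM and 1286 CPM of Glul. The arterial level of Glul was 2.49 times (2.27 to 2.73) the capillary level in the mutant and 2.29 times (2.07 to 2.54) in the wild-type library. Slc38a3 was at 240 CPM in mutant and 177 CPM in wild-type arterial cells. In capillary cells it was at 842 CPM in the mutant and 786 CPM in the wild-type library. The arterial level of Slc38a3 was 0.285 times (0.201 to 0.404) the capillary level in the mutant and 0.225 times (0.150 to 0.336) in the wild-type library. The summed level of 10 microglial markers was 150 CPM (mutant) and 110 CPM (wild type) in arterial cells, and 98.1 CPM and 112 CPM in capillary cells. Its part in the Glul difference was not tested. The 18 mutant and 24 wild-type endothelial-like cells with neither marker set had 3007 CPM and 2817 CPM of Glul, closer to arterial than to capillary cells.

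**Figure D3:**
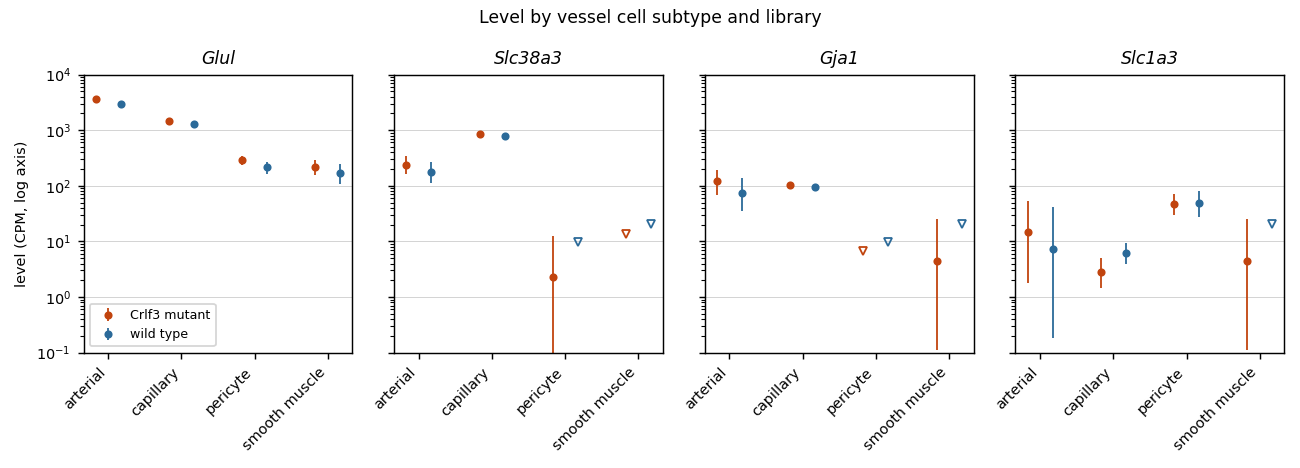
Level of 4 genes (CPM, log axis) in cells with arterial, capillary, pericyte or smooth muscle markers, Crlf3 mutant left of wild type, with Poisson 95% bars and open triangles for a count of 0 at the level of 3 UMIs. Glul was higher and Slc38a3 lower in arterial than in capillary cells in both libraries, and Slc1a3 was at 47.3 CPM (mutant) and 49.3 CPM (wild type) in pericytes.

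The window of Glul is shown because it is the gene of the set with the widest expression. It lies on the plus strand of chromosome 1 (chr1:153899679-153899978, GRCm38.p6, RefSeq), with capitals for CCAAT and GGGCGG on either strand.
Glul: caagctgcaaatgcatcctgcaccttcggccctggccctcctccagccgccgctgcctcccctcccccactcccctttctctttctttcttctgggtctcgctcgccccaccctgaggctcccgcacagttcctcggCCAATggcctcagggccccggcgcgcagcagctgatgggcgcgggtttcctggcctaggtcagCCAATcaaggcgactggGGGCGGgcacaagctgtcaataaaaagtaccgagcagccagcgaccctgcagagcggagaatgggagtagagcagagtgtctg
It holds 2 CCAAT matches and 1 GGGCGG match, and 64.3% of its bases are G or C, against a median of 52.7% over all windows. A match describes the letters and shows no bound factor.

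Slc6a11 (chromosome 6, 114131241 to 114249952, plus strand) encodes GAT3, the GABA transporter of astrocyte processes, and was nearly limited to astrocyte-like and radial glia-like cells in these libraries. Astrocyte-like cells had 406 CPM (385 to 427) in the mutant and 452 CPM (432 to 472) in the wild-type library. Radial glia-like cells had 118 CPM in the mutant and 208 CPM in the wild-type library, from 25 and 37 UMIs. Progenitor-like cells had 7.51 CPM and 7.26 CPM, from 8 mutant and 5 wild-type UMIs. Ependymal-like cells had 0 UMIs in the mutant library, which at 3 UMIs allows up to 20.9 CPM, and 34.4 CPM in the wild-type library. Astrocyte-like cells held 96.9% of the mutant and 96.1% of the wild-type UMIs of this gene.

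The connexins of astrocytes were found together in astrocyte-like cells, and in several other classes Gja1 was found with little or no Gjb6. Gja1 encodes Cx43, the most widely used connexin of the body, and was at 1697 CPM (1654 to 1741) in mutant and 1749 CPM (1710 to 1788) in wild-type astrocyte-like cells. Gjb6 encodes Cx30, which in brain is known as a connexin of astrocytes, and was at 1110 CPM (1075 to 1145) in mutant and 1216 CPM (1184 to 1249) in wild-type astrocyte-like cells. Of the UMIs of both connexins, Gja1 made up 60.5% (59.5% to 61.4%) in mutant and 59.0% (58.1% to 59.8%) in wild-type astrocyte-like cells.

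In radial glia-like, ependymal-like, progenitor-like and endothelial-like cells the interval of the Gja1 share lay above that of astrocyte-like cells in both libraries. In radial glia-like cells Gja1 was at 542 CPM in the mutant and 479 CPM in the wild-type library, against 89.5 CPM and 152 CPM for Gjb6. Gja1 there made up 85.8% (78.7% to 91.2%) of the UMIs of both connexins in the mutant and 75.9% (66.9% to 83.5%) in the wild-type library. In ependymal-like cells Gja1 was at 314 CPM in the mutant and 327 CPM in the wild-type library, from 45 and 114 UMIs, and Gjb6 had none, which at 3 UMIs allows up to 20.9 CPM and 8.60 CPM. In progenitor-like cells Gja1 was at 28.2 CPM (mutant) and 26.2 CPM (wild type), from 30 and 18 UMIs, and Gjb6 had none, which at 3 UMIs allows up to 2.82 CPM and 4.36 CPM. In neuroblast-like cells Gja1 was down to 2 mutant UMIs and 1 wild-type UMI, and Gjb6 again had none.

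In the vessel lining Gja1 was found with very little Gjb6. Its share of the UMIs of both connexins had an interval of 97.8% to 99.8% in mutant and 94.2% to 98.2% in wild-type endothelial-like cells. Gja1 was at 104 CPM (94.7 to 114) in mutant and 93.9 CPM (84.5 to 104) in wild-type endothelial-like cells. Gjc1, a connexin outside the set, was higher there, at 186 CPM in both the mutant and the wild-type library. A Gja1 UMI was found in 34.3% of mutant and 31.6% of wild-type cells, against 0.893% and 1.06% of microglia-like cells at greater depth. Gjb6 had 4 UMIs in mutant and 13 in wild-type endothelial-like cells, and 61.5% of the 13 came from 1 cell. The interval of the arterial to capillary ratio of Gja1 held 1, with arterial levels 1.18 times (0.714 to 1.94) the capillary level in the mutant and 0.772 times (0.412 to 1.45) in the wild-type library. In mural-like cells Gja1 had 1 UMI in the mutant library and 0 in the wild-type library. Another connexin, Gja4 (Cx37), was found there at 764 CPM in the mutant and 870 CPM in the wild-type library.

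Fibroblast-like cells were the only class outside astrocyte-like and radial glia-like cells with Gjb6 above 10 CPM. It was at 307 CPM (214 to 428) in 11 mutant and 390 CPM (314 to 480) in 24 wild-type fibroblast-like cells. Gja1 was at 369 CPM in the mutant and 60.7 CPM in the wild-type library. In the mutant library 35.7% of the Gja1 UMIs and 40.0% of the Gjb6 UMIs came from 1 cell each. Gja1 thus made up 54.5% (42.8% to 65.9%) of the UMIs of both connexins in the mutant and 13.5% (7.56% to 21.6%) in the wild-type fibroblast-like cells. Slc1a3 was at 413 CPM (mutant) and 126 CPM (wild type) in these cells and Slc38a3 at 246 CPM and 56.4 CPM. The summed level of 10 microglial markers was 931 CPM in mutant and 777 CPM in wild-type fibroblast-like cells. The highest single marker gave 624 CPM and 521 CPM of these sums, and 6 mutant and 2 wild-type markers were at 0. The part of microglial RNA in the values of these cells was not tested.

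The windows of both connexins are shown so that the genes that part company outside astrocytes can be read side by side. Both are RefSeq windows on GRCm38.p6. Gja1 is on the plus strand (chr10:56377050-56377349) and Gjb6 on the minus strand (chr14:57133562-57133861). Capitals mark TGAGTCA, the AP-1 motif, on either strand.
Gja1: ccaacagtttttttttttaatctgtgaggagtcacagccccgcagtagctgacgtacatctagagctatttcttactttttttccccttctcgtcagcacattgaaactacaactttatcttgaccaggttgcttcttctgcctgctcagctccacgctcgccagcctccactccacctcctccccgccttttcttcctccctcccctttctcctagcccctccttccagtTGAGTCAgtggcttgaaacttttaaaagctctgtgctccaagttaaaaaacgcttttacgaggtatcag
Gjb6: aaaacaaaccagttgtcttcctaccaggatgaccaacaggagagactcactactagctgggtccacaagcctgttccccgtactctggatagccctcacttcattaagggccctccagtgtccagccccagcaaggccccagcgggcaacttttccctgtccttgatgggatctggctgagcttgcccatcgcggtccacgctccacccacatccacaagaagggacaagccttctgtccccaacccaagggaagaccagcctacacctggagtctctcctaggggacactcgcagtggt
The Gja1 window holds 1 TGAGTCA match, a motif found in 5.20% of all windows. The Gjb6 window holds none of the 7 motifs searched. The other motifs searched were the SOX motif AACAAT, in 10.7% of all windows, the CRE motif TGACGTCA, in 1.79%, and the NFI palindrome. The NFI palindrome starts with TTGGC and ends, after 5 bases of any kind, with GCCAA, and 0.0365% of all windows hold it. No window of the 7 matched genes holds these 3. Of the 9 genes, 7 had a window; Slc38a3 and Aqp4 did not.

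Kcnj10 and Aqp4, often named together as endfoot channels, shared astrocyte-like and ependymal-like cells and parted in the neuron lineage. Kcnj10 (chromosome 1, 172341210 to 172374085, plus strand) encodes Kir4.1, the inward rectifier that buffers extracellular potassium. It was at 158 CPM (145 to 172) in mutant and 181 CPM (169 to 194) in wild-type astrocyte-like cells. Radial glia-like cells had 203 CPM in the mutant and 231 CPM in the wild-type library, and ependymal-like cells 133 CPM and 146 CPM. Spanning both libraries, the intervals of radial glia-like and astrocyte-like cells overlapped, and so did those of astrocyte-like and ependymal-like cells. Progenitor-like cells had 37.5 CPM (26.8 to 51.1) in the mutant and 29.1 CPM (17.7 to 44.9) in the wild-type library, 23.8% and 16.1% of the astrocyte-like level. Neuroblast-like cells had 9.64 CPM from 12 mutant UMIs and 3.87 CPM from 3 wild-type UMIs. Mural-like and fibroblast-like cells had no Kcnj10 UMI in either library.

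Aqp4, the main water channel of the brain, was at 1107 CPM (1072 to 1142) in mutant and 1030 CPM (1000 to 1060) in wild-type astrocyte-like cells. Ependymal-like cells had 747 CPM (612 to 903) in the mutant and 554 CPM (478 to 637) in the wild-type library, 67.5% and 53.8% of the astrocyte-like level. Radial glia-like cells had 165 CPM in the mutant and 270 CPM in the wild-type library, where 56.2% of the UMIs came from 1 cell. Progenitor-like cells had 1 UMI in the mutant and 0 in the wild-type library, so Aqp4 was at 0.0848% of its astrocyte-like level there in the mutant library, against 23.8% for Kcnj10. Mural-like cells had no Aqp4 UMI in either library, and endothelial-like cells had 3 in the mutant and 4 in the wild-type library.

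Across the 11 classes, Slc1a2, Glul, Slc6a11, Gja1, Gjb6 and Aqp4 ranked highest in astrocyte-like cells by the mean of both libraries. Slc1a3 and Kcnj10 ranked highest in radial glia-like cells and Slc38a3 in endothelial-like cells. Of the 10 steps from one class to the next in each gene's order, between 6 (Slc1a2 and Slc1a3) and 8 had overlapping intervals, most of them among classes with few UMIs. Log2 CPM of 8314 genes was correlated with each of the 9 over 14 points. The points were both libraries of the large classes, each with at least 50 cells, and the small classes did not enter. The points share libraries, and high values are usual for genes high in 1 class only. Gjb6 was most like Etnppl, Hsd11b1 and Cyp4f15, and Slc6a11 most like Cldn10, itself a class marker, Megf10 and Adcy2, all at Pearson r of at least 0.997. Slc38a3 was most like Slco1c1, a thyroid hormone transporter of vessel lining and astrocytes, with r = 0.994. Slc1a2 was most like Dab1 (0.994), Slc1a3 most like Tspan7 (0.992), Kcnj10 most like Igsf11 (0.990) and Gja1 most like Por (0.987). Glul had the lowest best match, Tlr3, with r = 0.959.

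Within astrocyte-like cells the genes varied from cell to cell with little common order. Slc1a2 had a median of 83.6 UMIs per 10000 UMIs of a cell in mutant cells, with the 5th to 95th percentile at 41.5 to 153. In wild-type cells the median was 85.9, with 46.0 to 159. Glul had a median of 74.7 (28.2 to 119) in mutant and 69.1 (26.5 to 108) in wild-type cells. Kcnj10 had a median of 1.10 in mutant and 1.41 in wild-type cells, and its lower quartile was 0 in both. Over the 36 pairs of genes, Spearman correlations across cells ran from -0.12 to 0.31 in the mutant and -0.17 to 0.27 in the wild-type library. Counts per cell are sparse for several of the genes, and cells of a library share their preparation.

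**Figure D4:**
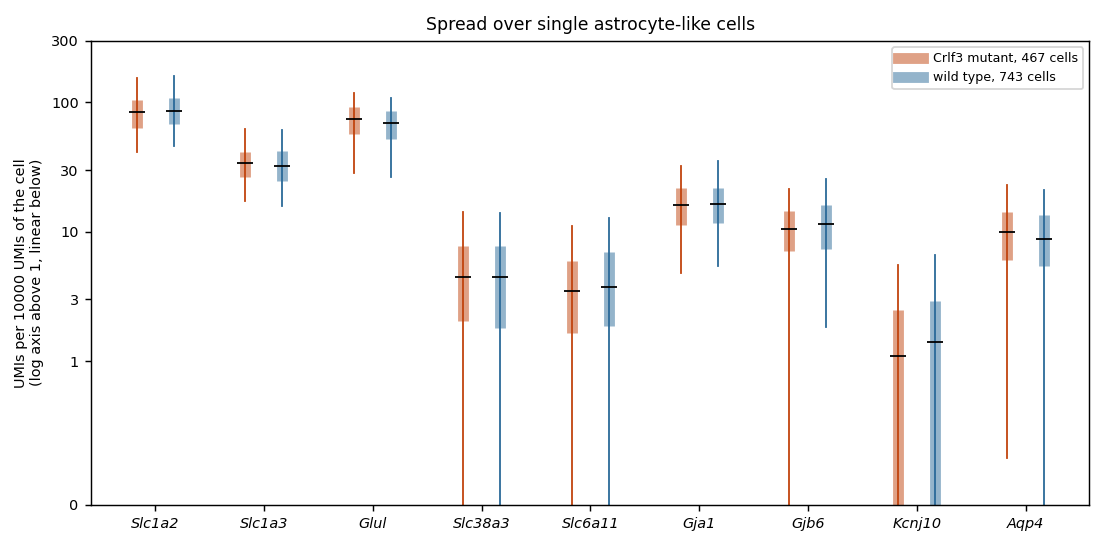
Spread of the 9 genes over single astrocyte-like cells (UMIs per 10000 UMIs of the cell, log axis above 1), 467 Crlf3 mutant cells left of 743 wild-type cells. Thin lines span the 5th to 95th percentile, boxes the quartiles and black marks the median, which for Slc1a2 is 83.6 in mutant and 85.9 in wild-type cells.

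Between the genotypes, the log2 ratios of the 9 genes in astrocyte-like cells lay between -0.19 and 0.12. None of the 9 genes was 1.5 times apart, against 0.167% of the 3603 measured genes of the class (at least 50 CPM and 30 UMIs in the higher library). The median log2 ratio, mutant over wild type with 10 CPM added, was -0.04 over the 9 genes and 0.00 over all measured genes. Ratios above 0 were those of Slc38a3 (0.12, 95% interval 0.03 to 0.20), Aqp4 (0.10, 0.04 to 0.16), Glul (0.09, 0.07 to 0.12) and Slc1a3 (0.02, -0.02 to 0.05). Ratios below 0 were those of Kcnj10 (-0.19, -0.33 to -0.04), Slc6a11 (-0.15, -0.25 to -0.06), Gjb6 (-0.13, -0.19 to -0.07), Slc1a2 (-0.05, -0.07 to -0.03) and Gja1 (-0.04, -0.09 to 0.01). All 9 ratios lay within the 5th to 95th percentile of all measured genes (-0.23 to 0.22). Counting intervals narrow as UMIs grow in number and cover no difference between animals. Homeostatic microglial markers were detected at low level in both libraries, with 10 of 10 above 0 and a sum of 127 CPM in mutant and 141 CPM in wild-type astrocyte-like cells. No astrocyte-like cell held 50 microglial UMIs. The gate had already left out cells that also had 5 of these 10 markers, so that outcome was nearly fixed in advance. Among cells of more than 1 class, 53 mutant and 84 wild-type cells held 50 microglial UMIs. In cells thinned to 2000 UMIs the ratio of Aqp4 turned to -0.03. With clusters as classes that of Gja1 was 0.00. The sexes of the pooled mice are not given, so ratios were also taken in 2 subsets. Xist-only cells had Xist but no UMI of a Y-linked gene, and Y-only cells the opposite. The mutant library held 2109 Xist-only and 1760 Y-only cells, and the wild-type library 2870 and 2086. With 2 mice in a pool, each subset would come from 1 mouse, so sex and animal cannot be told apart in it. In Y-only astrocyte-like cells the ratio of Slc1a3 turned to -0.08.

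**Figure D5:**
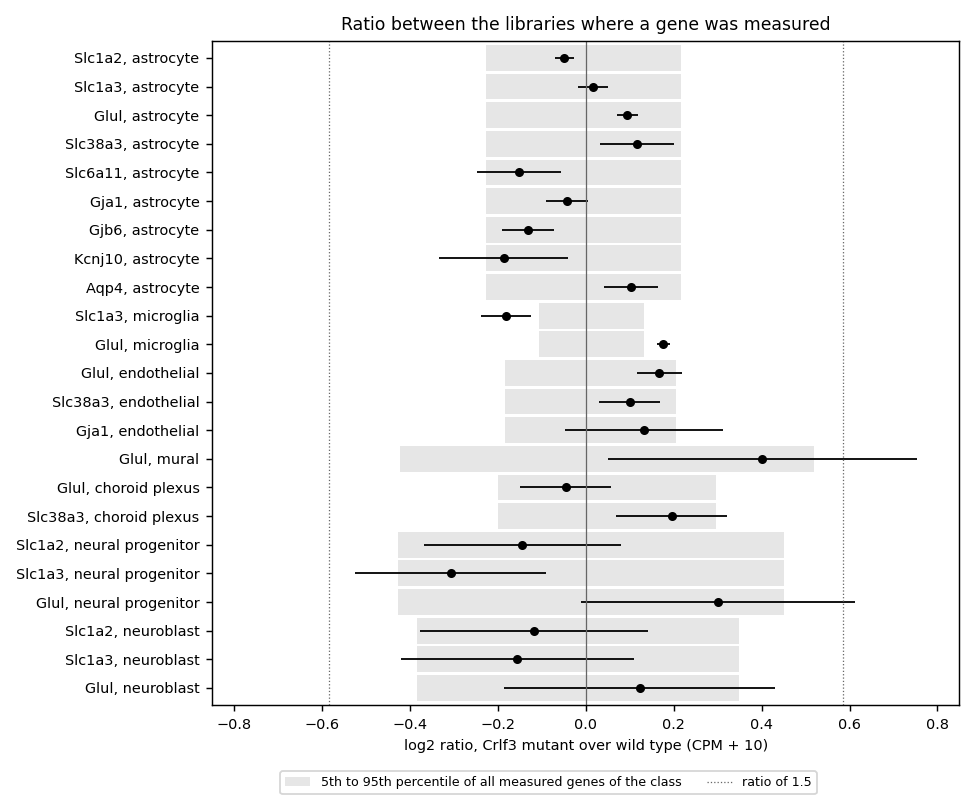
Log2 ratio of Crlf3 mutant over wild type (CPM with 10 CPM added) for each gene and class where the gene was measured, with 95% counting intervals. Grey bands span the 5th to 95th percentile of all measured genes of the class and dotted lines a ratio of 1.5; no point lies past 1.5, and Slc1a3 (-0.18) and Glul (0.18) in microglia-like cells lie outside their band.

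No gene of the set was 1.5 times apart in any other large class where it was measured. Microglia-like cells had 2 measured genes of the set, and 0.124% of all measured genes there were past 1.5. Their ratios were -0.18 (-0.24 to -0.13) for Slc1a3 and 0.18 (0.16 to 0.19) for Glul, at percentiles 1.42 and 98.0 of the 3234 measured genes. The Glul ratio was 0.32 in Xist-only and 0.07 in Y-only microglia-like cells. The Slc1a3 ratio was -0.10 in Y-only cells. Endothelial-like cells had 3 measured genes of the set, beside 0.0281% of all genes past 1.5, with ratios of 0.17 (0.12 to 0.22) for Glul, 0.10 (0.03 to 0.17) for Slc38a3 and 0.13 (-0.05 to 0.31) for Gja1. The Gja1 ratio turned to -0.13 in Y-only endothelial-like cells and to -0.10 after thinning.

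In choroid plexus-like cells, where 0.879% of all genes were past 1.5, Slc38a3 had a ratio of 0.20 (0.07 to 0.32) and Glul of -0.05 (-0.15 to 0.06). The Glul ratio there was -0.32 after thinning and turned to 0.22 in Y-only cells. In mural-like cells, where 5.24% of all genes were past 1.5, Glul had a ratio of 0.40 (0.05 to 0.75). That ratio was -0.35 with clusters in place of the marker gate and -0.43 in Y-only cells (46 mutant, 26 wild-type), so its direction depends on which cells enter. In progenitor-like cells, where 3.87% of all genes were past 1.5, the ratios were -0.31 (-0.52 to -0.09) for Slc1a3, -0.14 (-0.37 to 0.08) for Slc1a2 and 0.30 (-0.01 to 0.61) for Glul. With a stricter gate, the ratio of Slc1a3 turned to 0.06 and that of Slc1a2 to 0.13. The Slc1a2 ratio was also above 0 with clusters as classes (0.20) and in Xist-only cells (0.24). The stricter gate left only 28 mutant and 18 wild-type progenitor-like cells, and the Xist-only subset 21 and 18. After thinning, Slc1a3 (-0.64) and Glul (0.65) passed 1.5. Glul also passed it in Xist-only cells (0.69) and was at -0.01 in Y-only cells. In neuroblast-like cells, where 1.48% of all genes were past 1.5, the ratios of Slc1a2, Slc1a3 and Glul were -0.12, -0.16 and 0.12, and all 3 intervals held 0. After thinning, the Glul ratio turned to -0.49 and that of Slc1a2 to 0.06, and in Y-only cells that of Slc1a3 turned to 0.03.

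Related genes of the same pathways are given for comparison. In astrocyte-like cells, where 0.167% of all measured genes were past 1.5, no measured gene was past it among the other amino acid carriers (5 of 14 measured), the genes of glutamate and GABA metabolism (5 of 8), the connexin partners (4 of 5), the other potassium channels and pumps (7 of 13) and the aquaporins and endfoot genes (6 of 12). None of the 11 other connexins and pannexins was measured there. Median ratios of the lists with measured genes lay between -0.05 and 0.02. The widest apart were Slc1a4, a neutral amino acid exchanger (166 CPM in mutant and 206 CPM in wild-type cells, log2 ratio -0.29), and Kcnk1, a leak potassium channel (536 CPM and 442 CPM, log2 ratio 0.27). Mlc1, a membrane protein of endfeet, had a ratio of 0.10, close to that of Aqp4. Kcnj16, a partner subunit of Kcnj10, had 80.0 CPM in mutant and 89.2 CPM in wild-type cells, with a ratio of -0.14 (-0.34 to 0.06).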

How the data were processed

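Single-cell UMI counts of 2 libraries, 1 per genotype, were analysed. Per the labels' protocols, the authors made libraries with a 10x 5′ v2 kit and counted UMIs on mm10 using Cell Ranger, version 6.1.1. The deposited matrices hold raw counts, without normalization, of 5720 mutant and 7713 wild-type barcodes (43103469 and 51328178 UMIs). Cells had to show 500 genes, 1000 UMIs and a mitochondrial share no higher than 10%. Doublets called by Scrublet (scanpy 1.11.5, expected rate 0.06; 77 mutant, 148 wild-type) were removed. A cell took a class when it had UMIs of at least 50% of that class's markers (17 sets; ependymal-like, 6 of 8). Border macrophage-like was taken over microglia-like, radial glia-like over astrocyte-like, progenitor-like over neuroblast-like, and both of these over excitatory neuron-like. Cells of more than 1 class (104 mutant, 159 wild-type) or of none (68 and 83) were left out. The gate was set after the files were read. The 9 genes, gene lists and markers were chosen with earlier results of these data known. All 9 genes are named, with up to 4 measured genes per list by largest ratio in astrocyte-like cells and the highest gene of a list in other classes; Kcnj16 and Mlc1 are among these. Shares carry Clopper-Pearson 95% intervals. No p-value is given, and intervals cover neither differences between animals nor uneven UMIs among cells. The ratio calculation was checked on simulated counts with planted changes. That simulation held counting error only, with no spread between cells or animals. Gene positions are from GENCODE (GRCm38), promoter windows from RefSeq (GRCm38.p6).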

Additional observations from a re-analysis of the deposited data

How the results depend on the processing

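Over 13 alternatives the median log2 ratio of the 9 genes in astrocyte-like cells stayed between -0.09 (cells thinned to 2000 UMIs) and 0.00 (clusters as classes), and no gene of the set was past 1.5 there. The astrocyte-like share of the set's UMIs moved more. It was 45.4% in the mutant and 50.4% in the wild-type library with a stricter cell filter, 48.9% and 54.4% with all deposited barcodes, and 48.2% and 53.5% with clusters as classes. It was 49.1% and 56.1% after thinning, 53.9% and 62.3% in Xist-only cells, and 50.5% and 50.3% in Y-only cells, where the order of the libraries turned. With a stricter gate it was 49.0% in the mutant and 54.0% in the wild-type library. The cause of these moves was not tested. Of 297 values of single genes and classes under the alternatives, 259 stayed within their counting interval and 38 did not, and 19 took the other sign, in 12 of 23 results. Past 1.5 were 6 of them, in progenitor-like cells and, with a stricter gate that left 15 mutant and 2 wild-type cells, in neuroblast-like cells. Leaving out cells with 50 microglial UMIs removed no cell of the large non-immune classes, and the microglia-like class was left whole. The gate leaves out cells that also have 5 of the 10 microglial markers, so this outcome was nearly fixed in advance. The values of this alternative repeat the main ones and are among the 259 that stayed. Leaving out barcodes shared by the libraries was added after seeing the data. Xist-only choroid plexus-like cells were too few for a value. No paired analysis was possible because each genotype has 1 library. Depth limits the classes with few cells, where a count of 0 still allows, at 3 UMIs, up to 26.4 CPM (mutant fibroblast-like cells).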
